A study of Mus musculus with 2 samples.

Results

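Macrophages of the young mouse right ventricle were picked from droplet RNA libraries by their transcripts, and 877 of 22183 cell barcodes were macrophages. A barcode was taken as a macrophage when it held at least 500 UMIs (unique molecular identifiers, each standing for 1 captured RNA molecule) and when the cardiomyocyte genes Ttn and Ryr2 together made up under 2% of them. It also needed at least 3 UMIs from at least 2 of 8 genes (F13a1, Mrc1, Cd163, Adgre1, C1qa, C1qb, C1qc and Msr1) and no UMI of the lymphatic endothelial genes Prox1 and Mmrn1. These conditions, called the gate here, gave 292 macrophages in library 1 and 585 in library 2. They were compared with the other barcodes that passed the same UMI and Ttn+Ryr2 limits, 4164 in library 1 and 6170 in library 2.

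Both libraries belong to 1 group, so no knockout could be compared with a control. The mice were C57/BL6J pups labelled CBP flox/flox, p300 flox/flox and Trap flox/flox, meaning that the loci of the acetyltransferases CBP (Crebbp) and p300 (Ep300) carry loxP sites. The labels say nothing more of the Trap allele. AAV9, an adeno-associated virus, was given on postnatal day 1 to knock out p300 and CBP, and the right ventricle was taken on postnatal day 21. The labels do not give the promoter of the virus, the cells it recombines or how many pups went into a library. Per the labels' protocols, the tissue was frozen, digested with collagenase and enriched for cells bearing CD45, the leukocyte surface protein encoded by Ptprc, on magnetic beads. Library 1 held 12736 barcodes and 57982200 UMIs, and library 2 held 9447 barcodes and 50199793 UMIs. Of the barcode sequences, 17 occurred in both libraries, and 0 of these belonged to a macrophage.

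Macrophages settle in the heart before birth and are later joined by descendants of blood monocytes. They clear dying cells and cast-off mitochondria of cardiomyocytes, take up haem iron, present antigen and secrete growth factors. Survival of the lineage depends on the receptor Csf1r, whose ligands Csf1 and Il34 come from neighbouring cells, and on the transcription factor PU.1, encoded by Spi1. Self-renewing resident macrophages of the mouse heart are known by Timd4, Lyve1 and Folr2, whereas macrophages with Ccr2 and MHC class II carry a larger part derived from monocytes.

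The sequences upstream of the gate's genes are shown because these genes are the handle by which the cells were found, and PU.1 is the lineage's defining DNA-binding factor. RefSeq promoters (build GRCm38.p6, 250 bases before to 50 after a start site) were at hand for 5 of the 8 genes, with 6 start sites. The letters AGGAAGT, a form of the site bound by PU.1 and other ETS factors, were searched on both strands. They were found in 4 of these 6 promoters, against 9.35% of all 32851 promoters of the same length. The 250 bases before the start site are printed 5′ to 3′ on the gene's strand, with AGGAAGT or its reverse complement in capitals. They lie at chr2:14229164-14229413 (Mrc1, plus strand), chr4:136886201-136886450 (C1qb, minus), chr4:136892915-136893164 (C1qc, minus) and chr13:37049214-37049463 (F13a1, minus, the downstream one of 2 start sites). The gene spans on GRCm38 reach further upstream than these start sites in Mrc1 (from 14229392), C1qc (to 136893065) and F13a1 (to 37050244). The printed bases therefore lie partly inside the span in Mrc1 and C1qc, and wholly inside it in F13a1.
Mrc1: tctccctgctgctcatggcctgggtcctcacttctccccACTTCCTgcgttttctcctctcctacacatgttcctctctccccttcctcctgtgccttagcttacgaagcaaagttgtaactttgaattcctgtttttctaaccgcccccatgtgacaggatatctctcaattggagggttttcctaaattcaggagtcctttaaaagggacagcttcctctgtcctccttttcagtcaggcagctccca
C1qb: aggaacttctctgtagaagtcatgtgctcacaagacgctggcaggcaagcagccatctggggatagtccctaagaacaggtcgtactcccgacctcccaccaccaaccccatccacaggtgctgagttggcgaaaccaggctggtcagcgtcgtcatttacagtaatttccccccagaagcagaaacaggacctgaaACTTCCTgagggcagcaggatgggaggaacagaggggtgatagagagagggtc
C1qc: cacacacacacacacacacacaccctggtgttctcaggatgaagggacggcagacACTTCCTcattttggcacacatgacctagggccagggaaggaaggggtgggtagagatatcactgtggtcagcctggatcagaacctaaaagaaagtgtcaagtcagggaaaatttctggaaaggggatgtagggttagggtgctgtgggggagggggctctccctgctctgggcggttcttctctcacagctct
F13a1: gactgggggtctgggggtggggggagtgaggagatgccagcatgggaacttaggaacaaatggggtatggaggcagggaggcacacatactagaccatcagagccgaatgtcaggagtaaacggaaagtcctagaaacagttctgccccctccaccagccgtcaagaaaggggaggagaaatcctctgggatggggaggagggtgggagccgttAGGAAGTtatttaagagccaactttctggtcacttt
The first base of the capitals lies at -211 from the start site in Mrc1, -53 in C1qb, -195 in C1qc and -36 in F13a1, where a further match starts at position 15 after the start site. No match was in the Cd163 window or at the outer F13a1 start site. Of 4 other strings, the shorter GAGGAA, whose letters can overlap AGGAAGT, was in 5 of the 6 promoters against 28.3% of all. The AP-1 letters TGACTCA (5.20% of all promoters), an element of interferon regulatory factors (3.44%) and the MAF letters TGCTGAC (4.67%) were in 0 of the 6. A match is a run of letters and not a measured binding site. The promoters are few, F13a1 enters with 2 start sites, and C1qb and C1qc are neighbouring related genes. Whether the 6 differ from all promoters was not tested.

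The 8 genes of the gate chose the cells, so their levels are a description with no test. Levels are given as CPM, the share of a gene in all UMIs summed over the barcodes of a class in a library, multiplied by 1000000, always with library 1 first. F13a1, the A subunit of coagulation factor XIII, stood at 4113 and 4139 CPM in macrophages and at 37.9 and 65.1 CPM in the other barcodes. Mrc1, the mannose receptor CD206, stood at 2109 and 2190.0 CPM against 27.2 and 44.5 CPM. In the macrophages each of these 2 genes stood at a like level in both libraries. Cd163, the scavenger receptor for haemoglobin bound to haptoglobin, stood higher in library 1 (1066 CPM) than in library 2 (709 CPM), against 12.9 and 16.4 CPM in the other barcodes. The 3 subunit genes of complement C1q lie side by side on chromosome 4 (GRCm38, C1qb at 136880129 to 136886187, C1qc at 136889804 to 136893065 and C1qa at 136895917 to 136898803, all on the minus strand). In macrophages C1qa was at 629.6 and 481 CPM, C1qb at 542 and 489 CPM and C1qc at 452 and 404 CPM, so each of the 3 was somewhat higher in library 1. Adgre1, which encodes the F4/80 antigen, was at 503 and 548 CPM, and Msr1, the class A scavenger receptor, at 252 and 266 CPM.

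The members were mostly far from the edge of the gate. The median macrophage held 17.5 gate UMIs in library 1 and 32 in library 2, from a median of 5 and 6 of the 8 genes, and 17 and 110 macrophages held UMIs of all 8. Just inside the gate, 10 and 21 macrophages held exactly 3 gate UMIs. Just outside it, 29 and 79 barcodes held 2 UMIs from 2 genes, and 2 and 4 held 3 or more UMIs from a single gene. A further 32 and 70 barcodes met the gate but for a UMI of Prox1 or Mmrn1, and 22 and 33 met it but for Ttn and Ryr2.

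Macrophages were 2.29% of all barcodes in library 1 (95% Clopper-Pearson interval 2.04 to 2.57) and 6.19% in library 2 (5.71 to 6.70). Among barcodes under the Ttn+Ryr2 limit they were 6.55% (5.84 to 7.32) and 8.66% (8.0 to 9.36). The intervals cover counting error only, and the 2 libraries are replicates of the same group, so the difference between them was not tested. Ptprc had a UMI in 59.6% and 80.9% of macrophages, and in 2.11% and 3.70% of the other barcodes. Median depth was 1744 and 3325 UMIs in macrophages and 1589 and 3115.5 in the other barcodes. Mitochondrial transcripts were a median of 0.518% and 0.294% of a macrophage's UMIs.

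Macrophage genes outside the gate were also far higher in the picked barcodes of both libraries. This describes the picked barcodes and is no independent check of the label macrophage. Csf1r, the receptor on which the lineage depends, was at 536 and 419 CPM in macrophages and 13.4 and 18.6 CPM in the other barcodes. Lyz2, encoding lysozyme, was at 1011 and 973 CPM against 31.4 and 30.3 CPM, and Cd68, a lysosomal glycoprotein of macrophages, at 57.7 and 56.5 CPM against 2.57 and 3.20 CPM. Spi1 was at 154 and 171 CPM against 4.15 and 4.72 CPM. In each of these genes both macrophage sums lay above both sums of other barcodes, as the plot of gate and identity genes shows for all 21 identity genes measured.

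**Figure D1:**
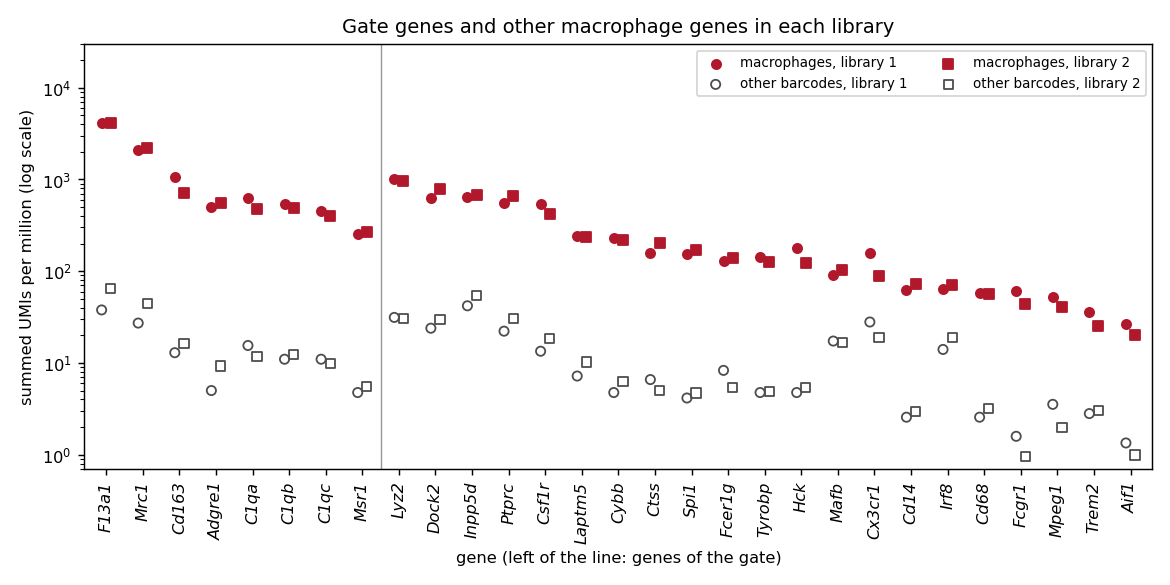
Summed UMIs as CPM (log scale) of the 8 gate genes (left of the line) and 21 further macrophage genes, in macrophages (filled) and other barcodes (open) of library 1 (circles) and library 2 (squares). Every filled point lies above both open points of its gene, and Csf1r sits at 536 and 419 against 13.4 and 18.6.

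For the comparison of macrophages with the other barcodes, counts were summed per library and class and 14726 genes were tested with edgeR, with the library as a block. Genes that passed an adjusted p of 0.05 and differed 2-fold or more were called, and 1414 of them (9.6% of those tested) were higher in macrophages and 1714 (11.6%) lower. These 2 shares are the background for every list count of this comparison. The median log2 difference over all genes tested was -0.11. Without the library as a block, 531 were higher and 14 lower. With the library as a block, the p-values rest on how the class difference varies between the 2 libraries, and that variation may be technical. Genes that accompany the gate's transcripts in a macrophage had to differ between picked and unpicked barcodes, so calls in this comparison describe the picked cells and are no support for the gate.

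Some macrophage barcodes also carried transcripts of other lineages, and this touches each comparison below. Counted over fibroblast, endothelial, pericyte and lymphocyte markers (without Bank1, described below), 37 of 292 macrophages in library 1 and 190 of 585 in library 2 held 10 or more such UMIs. Their median depth was 3550 and 6554 UMIs, against 1531.5 and 2608 UMIs in the macrophages with under 3. The fibroblast list (Pdgfra, Col1a1, Col1a2, Col3a1, Dcn and Lum) summed to 4214 and 3639 CPM in the former and 185 and 277 CPM in the latter. No doublet caller was used, and how many of these barcodes hold 2 cells was not tested. The level of gate genes was 3516 and 4822 CPM in macrophages with 10 or more other-lineage UMIs and 12187 and 15142 CPM in those with under 3. Without the macrophages at 10 or more, 1881 genes were called higher and 2361 lower, and 1371 of the 1414 and 1609 of the 1714 were called again in the same direction.

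Cardiomyocyte transcripts were present in both classes of barcodes and differed more between the libraries than between the classes. The 12 markers summed to 14723 CPM in macrophages and 20593 CPM in other barcodes of library 1, and to 3922 and 3688 CPM in library 2. None of the 10 tested passed (Ttn and Ryr2 were used by the gate), with 0 at an unadjusted p under 0.05 by edgeR and 0 called by DESeq2. GFP, a sequence in the table whose carrier the labels do not give, had 2 and 6 UMIs in macrophages, 3.12 and 2.35 CPM against 8.92 and 2.77 CPM in the other barcodes and 43.6 and 39.7 CPM in barcodes with Ttn+Ryr2 at 2% or more.

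The identity list of 21 measured genes was higher throughout (21 of 21 called, median log2 difference 4.603 against -0.11 over all genes tested). Fcgr1, the high-affinity IgG receptor CD64, was at 60.8 and 43.6 CPM against 1.59 and 0.952 CPM, a log2 difference of 5.37 (SE 0.33). Cybb, the catalytic subunit of the phagocyte NADPH oxidase, was at 228 and 219.7 CPM against 4.76 and 6.28 CPM (log2 5.28, SE 0.23). Spi1 differed by a log2 of 5.17 (SE 0.24), and Ctss, the antigen-processing protease cathepsin S, by 4.996 (SE 0.25). Cx3cr1, the fractalkine receptor, was at 157 and 88.3 CPM against 27.97 and 19.0 CPM (log2 2.30, SE 0.21).

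**Figure D2:**
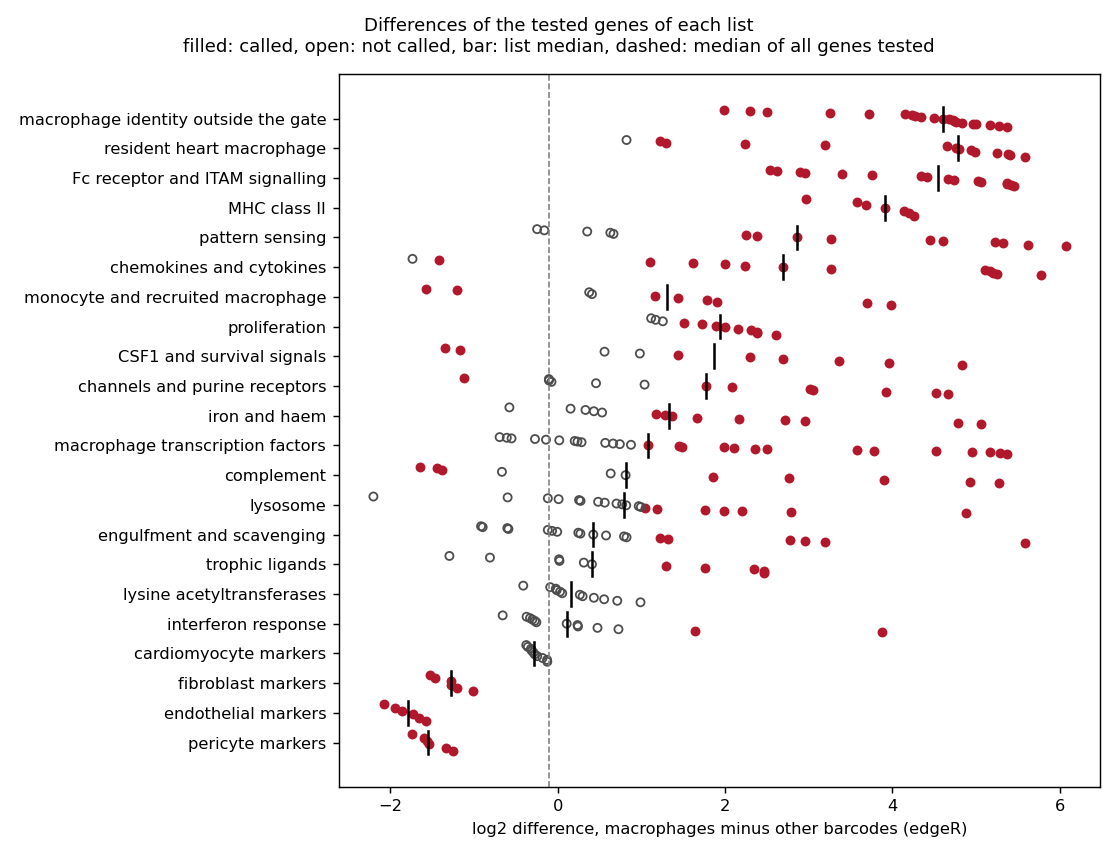
Log2 difference of each tested gene, macrophages minus other barcodes, by gene list, with called genes filled, list medians as bars and the median of all genes tested (-0.11) as a dashed line. The identity list has 21 of 21 genes called higher, the lysine acetyltransferases have 0 of 12 called, and the fibroblast, endothelial and pericyte markers have 6 of 6 called lower in each list.

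In the list of CSF1 and survival signals, the receptor genes Csf1r, Csf2rb, Csf2ra and Csf3r were higher in macrophages and both Csf1r ligands were lower. Of its 10 tested genes 6 were higher and 2 lower (median log2 difference 1.87). Besides Csf1r (log2 4.83, SE 0.24), the GM-CSF receptor chains Csf2rb (24.9 and 34.1 CPM against 2.20 and 1.82 CPM, log2 3.96, SE 0.37) and Csf2ra (157 and 120.5 against 27.5 and 16.0 CPM, log2 2.69, SE 0.21) were higher. Csf3r, the G-CSF receptor, was at 37.4 and 40.0 CPM against 3.91 and 3.64 CPM (log2 3.36, SE 0.31). The receptor genes of transforming growth factor beta were not called, with log2 differences of 0.98 (SE 0.20) for Tgfbr1 and 0.56 (SE 0.21) for Tgfbr2. Both genes called lower were the ligands. Csf1 was at 26.5 and 33.4 CPM in macrophages and 71.2 and 81.0 CPM in the other barcodes, a log2 difference of -1.35 (SE 0.23, edgeR adjusted p = 1.19e-05). Il34 was at 20.3 and 24.7 CPM against 65.8 and 45.3 CPM, a log2 difference of -1.17 (SE 0.25, adjusted p = 0.000299).

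The other barcodes were split by their markers to show where the ligands lay. A class took barcodes with at least 3 UMIs from at least 2 markers of 1 list and not of another: 1222 and 2512 barcodes with fibroblast markers, 702 and 1108 with endothelial markers and 403 and 249 with pericyte markers. Il34 was at 536 and 734 CPM in the pericyte-marker class, and between 2.85 and 6.54 CPM in the fibroblast-marker and endothelial-marker classes. Csf1 was at 83.8 and 97.4 CPM in the fibroblast-marker class, 44.8 and 44.3 CPM in the endothelial-marker class and 48.0 and 34.7 CPM in the pericyte-marker class. In barcodes with Ttn+Ryr2 at 2% or more, Csf1 was at 80.7 and 33.3 CPM and Il34 at 1.89 and 4.93 CPM. These levels are given without a test. Cx3cl1, the ligand of Cx3cr1, had 1 and 0 UMIs in macrophages and did not exceed 4.34 CPM in any of these classes.

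**Figure D3:**
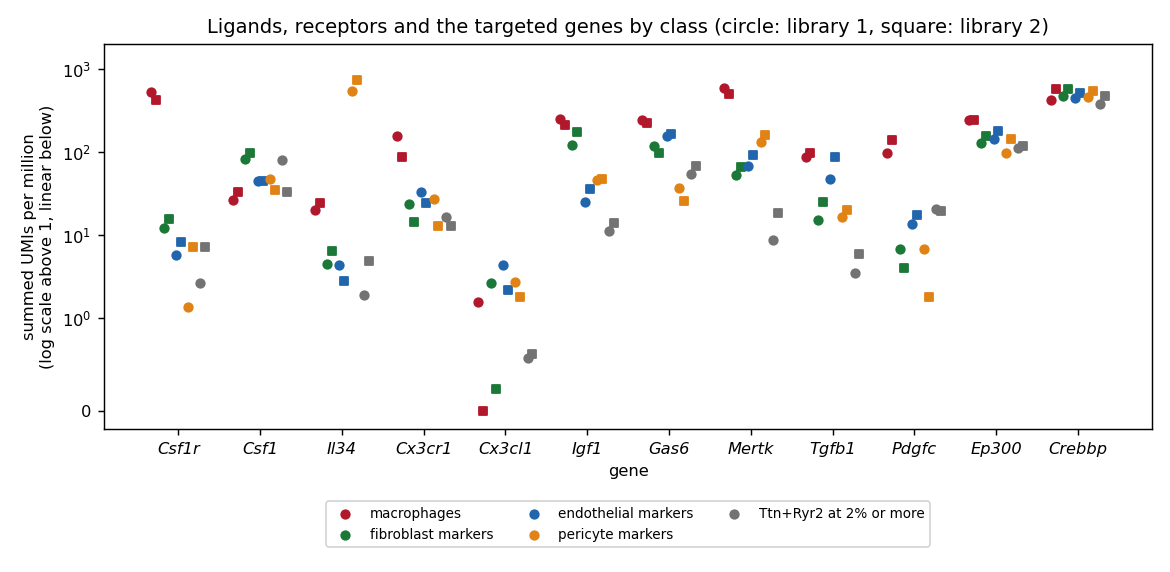
Summed UMIs as CPM (log scale above 1, linear below) of ligands, receptors and the 2 targeted acetyltransferase genes in macrophages, in 3 marker classes of the other barcodes and in barcodes with Ttn+Ryr2 at 2% or more, with circles for library 1 and squares for library 2. Il34 stands at 536 and 734 in the pericyte-marker class, Csf1r at 536 and 419 in macrophages, and Crebbp lies close together in all 5 classes.

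Of 14 tested genes of resident heart macrophages 13 were higher in the picked barcodes (median log2 difference 4.78). Timd4, a receptor for phosphatidylserine on dying cells, was at 95.1 and 111 CPM against 1.22 and 2.77 CPM (log2 5.58, SE 0.27). Folr2, the folate receptor beta, was at 157 and 119 CPM against 3.30 and 2.99 CPM (log2 5.38, SE 0.24). Clec10a, a galactose-binding lectin, was at 111 and 80.1 CPM against 2.57 and 1.82 CPM (log2 5.41, SE 0.27), and the chemokine gene Ccl24 at 23.4 and 24.7 CPM against 0.733 and 0.563 CPM (log2 5.25, SE 0.50). Lyve1, a hyaluronan receptor shared with endothelium, was at 134 and 181 CPM in macrophages and at 66.5 and 129 CPM in the endothelial-marker class. The gene that was not called was Gas6, which bridges phosphatidylserine to the receptor Mertk. Gas6 was at 243 and 222 CPM against 112 and 143 CPM (log2 0.82, SE 0.20). A UMI of Lyve1, Timd4 or Folr2 was present in 114 of 292 macrophages (39.0%) and 326 of 585 (55.7%), and in 2.76% and 8.53% of the other barcodes. Most of the latter share was Lyve1, with a UMI in 2.16% and 7.37% of the other barcodes. Timd4 was in 0.240% and 0.681% of them and Folr2 in 0.528% and 1.05%.

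Genes of the monocyte list differed in both directions. Ccr2, the receptor that brings monocytes into tissue, was at 28.1 and 48.7 CPM against 4.64 and 2.38 CPM (log2 3.69, SE 0.35) and had a UMI in 7 of 292 and 26 of 585 macrophages. Ly6c2, the surface marker of classical monocytes, had 0 and 7 UMIs, and Chil3 had 0 and 6, where a count of 3 equals 4.68 CPM in library 1 and 1.18 CPM in library 2. Itga4, an integrin subunit of leukocytes, was at 203 and 249 CPM against 12.1 and 15.6 CPM (log2 3.99, SE 0.22). Of the 10 tested genes of the list 6 were higher and 2 lower, DESeq2 calling 2 higher and 2 lower. Over all genes tested by edgeR 9.6% were higher and 11.6% lower. The 2 lower genes, Vcan and Ace, were at 17.1 and 48.7 CPM against 59.2 and 137 CPM and at 3.12 and 19.6 CPM against 20.03 and 38.4 CPM. In the fibroblast-marker class, part of the other barcodes, Vcan was at 133 and 228 CPM and Ace at 37.3 and 59.6 CPM.

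Several defining genes of other leukocytes were sparse in the macrophages. The dendritic cell genes Xcr1 and Cd209a had 0 UMIs in library 1 and 1 UMI each in library 2, and Ccr7 had 0 in both, where a count of 0 allows up to 3 UMIs, or 4.68 and 1.18 CPM. Flt3 had 1 and 9 UMIs, Itgax 0 and 7 and Clec9a 1 and 16. The T cell gene Cd3e had 1 and 2 UMIs, the B cell genes Cd79a and Ms4a1 had 0 and 3 and 0 and 4, the neutrophil gene Ly6g had 0 and 0 and the mast cell gene Cpa3 had 0 and 17. Of the tested mast cell and glial markers 0 were higher, with 1 of 5 (Kit) and 0 of 3 lower. Of 3 tested neutrophil markers Csf3r was higher and S100a8 lower, the latter with 1 and 1 UMIs in macrophages.

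Other genes on those lists were present in macrophages. Bank1, known as a scaffold of B cell receptor signalling and placed on the lymphocyte list for that reason, was at 430.1 and 399 CPM in macrophages and 9.16 and 13.03 CPM in the other barcodes (log2 5.17, SE 0.24). It had a UMI in 43.8% and 55.2% of macrophages and in 1.01% and 1.72% of the other barcodes. After every barcode was thinned to 500 UMIs these shares were 19.9% and 18.3%, against 0.24% and 0.535%. Siglech, a marker of plasmacytoid dendritic cells and of microglia, was at 39.0 and 14.1 CPM against 0.244 and 0.346 CPM (log2 5.94, SE 0.55), in 5.82% and 4.62% of macrophages. Batf3, a factor of type 1 dendritic cells, was at 21.8 and 25.1 CPM against 1.59 and 1.47 CPM (log2 3.95, SE 0.43). Zbtb46, also on the dendritic cell list, was at 49.9 and 104 CPM against 101 and 130 CPM (log2 -0.62, SE 0.22) and was not called. It had a UMI in 9.59% and 27.4% of macrophages and in 14.1% and 28.2% of the other barcodes. In the endothelial-marker class Zbtb46 was at 309 and 282 CPM.

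Transcripts of MHC class II antigen presentation were higher in the summed macrophages. All 7 tested genes of the list were higher (median log2 difference 3.92). H2-Aa was at 122 and 131 CPM against 9.53 and 4.76 CPM (log2 4.26, SE 0.26), H2-Eb1 at 111 and 93.8 against 8.18 and 3.85 CPM (log2 4.19, SE 0.25), and H2-Ab1 at 95.1 and 86.7 against 10.7 and 3.51 CPM (log2 3.92, SE 0.28). Cd74, the invariant chain that guides these dimers, was at 313 and 266 CPM against 22.8 and 11.4 CPM (log2 4.14, SE 0.24).

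Complement genes were divided. Of 11 tested genes outside the gate 5 were higher and 3 lower (median log2 difference 0.81), beside 9.6% and 11.6% of all genes tested. The receptors for the fragments C3a and C5a were high in macrophages, C3ar1 at 123 and 122 CPM against 2.93 and 3.20 CPM (log2 5.27, SE 0.25) and C5ar1 at 91.9 and 98.5 CPM against 3.54 and 2.81 CPM (log2 4.93, SE 0.26). Cfp, encoding properdin, was at 87.3 and 88.3 CPM against 14.0 and 11.8 CPM (log2 2.76, SE 0.22). The proteases that complete the C1 complex lay elsewhere, C1ra at 12.5 and 13.3 CPM in macrophages against 26.5 and 37.3 CPM (log2 -1.38, SE 0.29) and C1s1 at 18.7 and 20.4 CPM against 53.5 and 53.7 CPM (log2 -1.45, SE 0.25). C3, the central component, was at 62.3 and 96.9 CPM against 176 and 313 CPM (log2 -1.64, SE 0.22), and at 257 and 375 CPM in the fibroblast-marker class. C1ra and C1s1 therefore stood lower in macrophages while the C1q genes, which chose the cells, stood higher.

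Some receptors for dying cells and modified lipoproteins were higher in macrophages. Of 19 tested 6 were higher and 0 lower (median log2 difference 0.43), beside 9.6% and 11.6% of all genes tested. Stab1, a scavenger receptor also found on sinusoidal endothelium, was at 1032 and 793 CPM against 74.8 and 119.8 CPM (log2 3.20, SE 0.25), and Mertk, the receptor through which macrophages take up dying cells, at 594 and 499.9 CPM against 66.0 and 88.7 CPM (log2 2.78, SE 0.22). Rac2, the leukocyte form of a GTPase that drives the actin cup, was at 20.3 and 9.81 CPM against 1.95 and 1.47 CPM (log2 2.96, SE 0.49). Mertk has 2 relatives, together the TAM receptors, of which Axl was at 96.6 and 131 CPM against 172 and 243 CPM (log2 -0.90, SE 0.21) and Tyro3 at 3.12 and 3.92 CPM against 4.03 and 6.28 CPM (log2 -0.60, SE 0.57). Neither was called. Dock1 (log2 0.27, SE 0.21) and Lrp1 (log2 -0.07, SE 0.20), used for uptake by many cell types, were not called either. Without the macrophages at 10 or more other-lineage UMIs, 8 were higher and 2 lower.

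Several lysosomal proteases and glycosidases were higher. Of 20 tested lysosome genes 7 were higher and 0 lower (median log2 difference 0.79), and 12 were higher and 1 lower without macrophages at 10 or more other-lineage UMIs. Ctsc, the protease that activates granule enzymes, was at 611 and 649 CPM against 21.5 and 20.2 CPM (log2 4.88, SE 0.24). Lgmn, asparaginyl endopeptidase, was at 315 and 319 CPM against 43.1 and 46.1 CPM (log2 2.79, SE 0.21), Ctsb at 536 and 427 against 107 and 94.4 CPM (log2 2.21, SE 0.21) and Hexa, a beta-hexosaminidase subunit, at 193 and 221 against 42.6 and 58.9 CPM (log2 1.99, SE 0.20). By contrast, Ctsd was at 277 and 152 CPM against 219 and 124 CPM (log2 0.27, SE 0.20) and Ctsl at 120.0 and 105 CPM against 145 and 183 CPM (log2 -0.60, SE 0.21), and neither was called. Gpnmb, a gene of lipid-laden and lysosome-stressed macrophages, had 2 and 0 UMIs.

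Of 14 tested genes of iron and haem handling 9 were higher in macrophages and 0 lower (median log2 difference 1.33). Slc11a1, the phagosomal metal transporter NRAMP1, was at 143 and 67.1 CPM against 3.79 and 2.12 CPM (log2 5.05, SE 0.25). Slc40a1, the iron exporter ferroportin, was at 153 and 113 CPM against 18.4 and 14.6 CPM (log2 2.96, SE 0.21), and Hmox1, haem oxygenase 1, at 23.4 and 19.6 CPM against 3.30 and 3.03 CPM (log2 2.71, SE 0.39). Spic, a factor of iron-recycling macrophages, was low but present at 12.5 and 5.89 CPM against 0.489 and 0.173 CPM (log2 4.79, SE 0.65). The iron transporter gene Slc11a2 was not called, at 26.5 and 22.0 CPM against 18.8 and 18.2 CPM (log2 0.33, SE 0.28). The ferritin chains were not called either, Fth1 being at 432 and 186 CPM against 394 and 156 CPM (log2 0.15, SE 0.21) and Ftl1 at 229 and 140.5 CPM against 178 and 82.8 CPM (log2 0.53, SE 0.20).

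Receptors that sense microbial patterns and nucleic acids were higher in macrophages in most cases. Of 15 tested genes 10 were higher and 0 lower (median log2 difference 2.86). The RNA sensors Tlr7, at 195 and 171 CPM against 2.57 and 4.29 CPM (log2 5.62, SE 0.25), and Tlr8, at 63.9 and 43.6 CPM against 0.855 and 0.649 CPM (log2 6.07, SE 0.35), had the 2 largest differences of the list. Tlr9, the DNA sensor, had 1 and 0 UMIs and was not tested. Tlr1 was at 18.7 and 20.01 CPM against 0.855 and 0.303 CPM (log2 5.32, SE 0.55) and Nlrp3, the inflammasome sensor, at 34.3 and 24.3 CPM against 0.489 and 0.823 CPM (log2 5.22, SE 0.46). Tlr4, the receptor for bacterial lipopolysaccharide, was at 108 and 161 CPM against 74.0 and 95.2 CPM (log2 0.63, SE 0.20) and was not called, and neither was its adaptor Myd88 (log2 0.35, SE 0.33).

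Genes of immunoglobulin Fc receptors and the ITAM pathway were higher in 16 of 16 tested (median log2 difference 4.54). The inhibitory receptors were represented by Lilrb4a, at 334 and 257 CPM against 6.35 and 6.41 CPM (log2 5.46, SE 0.24), and Fcgr2b, at 221 and 159 CPM against 4.52 and 3.90 CPM (log2 5.42, SE 0.24). The activating receptors Fcgr3 (175 and 133 against 3.18 and 3.68 CPM, log2 5.37, SE 0.24) and Fcgr1 were alongside them. Fcgr and Lilrb genes have close relatives, and the sources used here do not state how reads were shared among them.

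Of 13 tested chemokine and cytokine genes 11 were higher and 1 was lower (median log2 difference 2.69), DESeq2 calling 8 higher. Ccl9 was at 106 and 119 CPM against 3.54 and 2.86 CPM (log2 5.16, SE 0.26), Ccl12 at 76.4 and 34.5 CPM against 1.10 and 0.693 CPM (log2 5.78, SE 0.35) and Ccl4 at 9.35 and 5.49 CPM against 0.244 and 0.130 CPM (log2 5.20, SE 0.71). These attract monocytes and lymphocytes. Cxcl12, the retention factor for blood progenitors, was the member that was lower, at 24.9 and 19.6 CPM against 71.1 and 49.2 CPM (log2 -1.42, SE 0.24). Some inflammatory genes were at or near 0, with Il6 at 0 and 0 UMIs, Il1b at 1 and 9 UMIs and Cxcl10 at 0 and 8 UMIs. Il18, a cytokine processed by the inflammasome, was called higher at 14.0 and 14.5 CPM against 2.57 and 9.35 CPM (log2 1.10, SE 0.41, edgeR adjusted p = 0.0381). Tnf was called higher on 4 and 5 UMIs (6.23 and 1.96 CPM against 0.611 and 0.390 CPM).

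Of 11 tested trophic ligands 5 were higher and 0 lower (median log2 difference 0.41), beside 9.6% and 11.6% of all genes tested. Apoe, a lipid carrier, was at 4337 and 2414 CPM against 682 and 470.4 CPM (log2 2.47, SE 0.27). Pdgfc, a ligand of the receptor Pdgfra on fibroblasts, was at 96.6 and 139 CPM against 14.3 and 27.7 CPM (log2 2.47, SE 0.21). Lgals3, encoding galectin 3, was at 39.0 and 31.4 CPM against 8.55 and 5.54 CPM (log2 2.35, SE 0.29), and Grn, progranulin, at 324 and 246 CPM against 88.9 and 73.8 CPM (log2 1.76, SE 0.20). Igf1, a growth factor attributed to resident macrophages, was at 248 and 212 CPM in macrophages and at 123 and 176 CPM in the fibroblast-marker class. Areg had 0 UMIs in both libraries, Osm 1 and 3, Il10 2 and 2 and Spp1 1 and 2.

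The transcription factors of the lineage were higher in 14 of 27 tested and lower in 0 (median log2 difference 1.07). Besides Spi1, Runx1, a factor of blood cell formation, was at 1298 and 819 CPM against 27.7 and 23.6 CPM (log2 5.28, SE 0.26), Tfec, a relative of the lysosomal factor Tfeb, at 32.7 and 56.9 CPM against 0.977 and 1.26 CPM (log2 5.37, SE 0.35), and Irf4 at 15.6 and 20.01 CPM against 1.10 and 0.346 CPM (log2 4.96, SE 0.56). Factors with wide roles were closer to the other barcodes. Cebpb was at 114 and 75.3 CPM against 72.1 and 51.0 CPM (log2 0.57, SE 0.20) and Klf2 at 81.0 and 119 CPM against 82.7 and 134 CPM (log2 -0.14, SE 0.20), and neither was called.

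The targeted acetyltransferase genes were present in macrophages. Ep300 was at 245 and 241 CPM in macrophages and 126 and 162 CPM in the other barcodes, so both macrophage sums lay above both of the others. The log2 difference of 0.71 (SE 0.20, edgeR adjusted p = 0.00544) was under the 2-fold limit and was not called. Without macrophages at 10 or more other-lineage UMIs it was 1.07 (adjusted p = 4.17e-05). In the marker classes Ep300 lay between 97.4 and 178 CPM, and in barcodes with Ttn+Ryr2 at 2% or more at 111 and 119.7 CPM. After thinning to 500 UMIs, 9.25% and 12.99% of macrophages and 6.03% and 7.59% of other barcodes held an Ep300 UMI. Crebbp was at 422 and 567 CPM against 425 and 548 CPM, the values of library 2 being higher in both classes, with a log2 difference of -0.02 (SE 0.22, adjusted p = 0.959). Counts of the 3′ end say nothing of deleted exons, and with no control sample these levels do not show whether the virus reached macrophages. Among the 12 tested lysine acetyltransferases 0 were called by edgeR (2 had an unadjusted p under 0.05) and 1 by DESeq2 (median log2 difference 0.16). Without macrophages at 10 or more other-lineage UMIs edgeR called 2 of the 12 higher, Ep300 and Ncoa3 (log2 1.34).

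Of 13 tested interferon-inducible genes 2 were higher and 0 lower (median log2 difference 0.11), beside 9.6% of all genes tested that were higher. Mx1, an antiviral GTPase, was at 32.7 and 32.2 CPM against 2.08 and 2.21 CPM (log2 3.88, SE 0.35), and Ifi204, a sensor of cytosolic DNA, at 154 and 122 CPM against 52.5 and 35.3 CPM (log2 1.64, SE 0.20). Ifit1 (4.68 and 16.5 against 10.3 and 18.1 CPM, log2 -0.30, SE 0.34) and Isg15 (6.23 and 4.71 against 7.08 and 5.67 CPM, log2 -0.26, SE 0.50) were not called.

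Of 12 tested proliferation genes 9 were higher in macrophages and 0 lower (median log2 difference 1.94). Top2a, the topoisomerase of dividing cells, was at 95.1 and 58.9 CPM against 11.7 and 15.0 CPM (log2 2.38, SE 0.24), Mki67, the Ki-67 antigen, at 84.2 and 43.2 CPM against 9.28 and 12.8 CPM (log2 2.31, SE 0.26), and the kinetochore motor Cenpe at 70.1 and 34.9 CPM against 5.74 and 8.74 CPM (log2 2.61, SE 0.29). The level was higher in library 1 for each of these 3 genes in macrophages, and lower in library 1 for each in the other barcodes. At least 3 UMIs from at least 2 of the 12 genes were found in 28 of 292 macrophages, 9.59% (exact interval 6.47 to 13.6), and in 36 of 585, 6.15% (4.35 to 8.42). In the other barcodes the shares were 0.72% (0.487 to 1.03) and 0.891% (0.672 to 1.16). These barcodes were deeper than their class, with median depths of 2832.5 and 4191.5 UMIs in macrophages. After thinning to 500 UMIs, any proliferation UMI was found in 9.93% and 7.52% of macrophages and 1.92% and 1.62% of other barcodes. Among macrophages with under 10 other-lineage UMIs, 26 of 255 and 28 of 395 met the criterion.

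**Figure D4:**
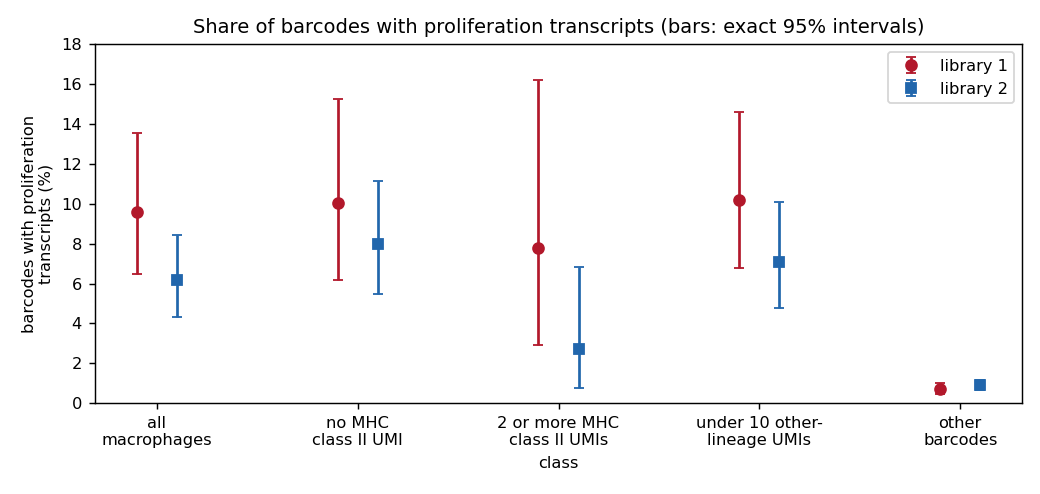
Share of barcodes with at least 3 UMIs from at least 2 of 12 proliferation genes, with exact 95% intervals, by class and library. Macrophages stand at 9.59% and 6.15% and the other barcodes at 0.72% and 0.891%, and the intervals of macrophages with and without MHC class II overlap.

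Ion channel and purine receptor genes were higher in 7 of 13 tested and lower in 1 (median log2 difference 1.77). P2ry12, an ADP receptor known from microglia, was at 139 and 142 CPM against 6.35 and 4.85 CPM (log2 4.66, SE 0.24), and P2ry6, a UDP receptor that triggers uptake, at 204 and 196 CPM against 7.21 and 9.48 CPM (log2 4.53, SE 0.22). Trpm2, a cation channel gated by oxidants, was at 9.35 and 17.7 CPM against 1.10 and 0.866 CPM (log2 3.93, SE 0.54). Gja1, encoding the gap junction protein connexin 43, was the lower member at 114 and 49.8 CPM against 243 and 104 CPM (log2 -1.12, SE 0.21). Gja1 was at 413 and 449 CPM in barcodes with Ttn+Ryr2 at 2% or more.

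Outside the lists, the called genes with the largest differences at 50 CPM or more were F630028O10Rik (409.9 and 222 CPM against 4.64 and 4.72 CPM, log2 5.91), Aoah (542 and 552 against 7.21 and 10.5 CPM, log2 5.90), Ms4a4a, Clec4a2, Fcrls, Ms4a6d, Cd86, Mgl2, Ms4a6b and Alox5, with log2 differences from 5.52 to 5.91. Aoah inactivates bacterial lipopolysaccharide, Cd86 is a costimulatory ligand for T cells (436 and 367 CPM against 8.67 and 7.10 CPM, log2 5.63, SE 0.24) and Alox5 makes leukotrienes (178 and 144 against 3.91 and 2.99 CPM, log2 5.52, SE 0.24). The Ms4a6 and Clec4a families hold near copies, and their counts are uncertain to that extent. The 5 lowest were Hmcn1, Heg1, Sox5, Lama4 and Ebf1 (log2 -2.15 to -1.85). Hmcn1 and Lama4 encode matrix proteins and Ebf1 a factor of stromal and B cells. All 6 fibroblast, 6 endothelial, 6 pericyte and 5 epicardial markers tested were lower, with list medians of -1.28, -1.80, -1.55 and -1.87, DESeq2 calling 5 of the 6 fibroblast markers. Without the macrophages at 10 or more other-lineage UMIs these medians were -3.32, -3.37, -3.05 and -3.69. The fibroblast, endothelial and pericyte markers were themselves counted to remove macrophages, so the larger differences of these lists follow from the removal.

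Macrophages differed among themselves in MHC class II. Those with at least 2 UMIs of H2-Ab1, H2-Aa, H2-Eb1 and Cd74 together (MHC class II-bearing) numbered 77 in library 1 and 147 in library 2, or 26.4% and 25.1%. Those with no such UMI (MHC class II-free) numbered 189 and 388, or 64.7% and 66.3%, and 26 and 50 with exactly 1 were left aside. Median depths were 1711 and 3509 UMIs in bearing and 1769 and 3263.5 UMIs in free macrophages, and 12.99% and 36.7% of bearing and 11.1% and 31.2% of free macrophages held 10 or more other-lineage UMIs. Of 8705 genes tested by edgeR outside the genes of the gate and the split, 35 (0.402%) were higher and 29 (0.333%) lower in bearing macrophages. DESeq2 called 1 higher and 0 lower (27 and 38 had an unadjusted p under 0.05), and edgeR without the library block called 0 and 0 (39 and 65). By edgeR with the block, 13 higher and 6 lower were called without macrophages at 10 or more other-lineage UMIs, of which 10 and 5 were among the 35 and 29. Of 3 tested dendritic cell genes 0 were called (Zbtb46 log2 -0.64, Siglech 0.02, Batf3 0.68). Among those too sparse to test, Clec9a had 1 and 12 UMIs in bearing and 0 and 3 in free macrophages, 75% of the 12 from 1 barcode. Flt3 had 1 and 6 against 0 and 2 UMIs and Itgax 0 and 6 against 0 and 1. How many bearing barcodes were dendritic cells was not tested.

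Genes higher in bearing macrophages included others of the MHC class II pathway and Ccr2. Genes that accompany the transcripts of the split in a cell had to differ. The calls of Ciita and H2-DMb1 therefore describe the barcodes picked by the split and are no support for it. Ciita, the transactivator of the MHC class II genes, was at 96.9 and 88.7 CPM in bearing macrophages and 9.89 and 2.47 CPM in free ones (log2 4.43, SE 0.44, edgeR adjusted p = 2.67e-19), and it was the gene that DESeq2 called (adjusted p = 0.00146). H2-DMb1, which loads peptide onto the dimers, was at 84.8 and 74.4 CPM against 4.94 and 9.25 CPM (log2 3.19, SE 0.41, adjusted p = 1.08e-11 by edgeR and 0.0916 by DESeq2). Ccr2 was at 60.6 and 124 CPM against 17.3 and 14.8 CPM (log2 2.80, SE 0.34, adjusted p = 1.52e-12 by edgeR and 0.48 by DESeq2). Its UMIs came from few barcodes. In library 1, 5 of 77 bearing and 1 of 189 free macrophages held a Ccr2 UMI, and in library 2 these were 18 of 147 and 6 of 388. Without macrophages at 10 or more other-lineage UMIs, Ciita (log2 4.89, adjusted p = 0.00485), H2-DMb1 (3.17, 0.00587) and Ccr2 (3.17, 0.00587) were still called by edgeR. Of 6 tested genes of the monocyte list 1 (Ccr2) was higher and 1 (Fn1) lower, with a median log2 difference of 0.10. Fn1 was at 48.4 and 206 CPM in bearing and 101 and 553 CPM in free macrophages (log2 -1.37, SE 0.20, edgeR adjusted p = 1.04e-08). Fn1 was called lower again without macrophages at 10 or more other-lineage UMIs (log2 -1.21, adjusted p = 0.0213). Its UMIs were concentrated too. In free macrophages 1 barcode held 51.2% of the 41 Fn1 UMIs of library 1 and 15.3% of the 897 of library 2. In bearing macrophages 1 barcode held 50% of the 8 and 42.4% of the 144.

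Further called genes included Cd52, a leukocyte surface glycopeptide, at 72.7 and 63.0 CPM against 14.8 and 15.4 CPM (log2 2.09, SE 0.38), and Klra2, a lectin-like receptor of the Ly49 family, at 42.4 and 64.4 CPM against 7.41 and 11.1 CPM (log2 2.52, SE 0.42). Both were called again without macrophages at 10 or more other-lineage UMIs. Gpr141, Ipcef1, Bcl11a and Ndst3 completed the genes named as highest, with log2 differences from 2.06 to 2.54. In bearing macrophages of library 2, 1 barcode held 68.2% of the 22 Bcl11a UMIs and 1 held 50% of the 18 Gpr141 UMIs, and in library 1 1 barcode held 60% of the 5 Ndst3 UMIs. The natriuretic peptide gene Nppa was called too (log2 2.14), but 68.6% of its 140 UMIs in bearing macrophages of library 1 came from 1 barcode, and in library 2 it was at 7.15 CPM in bearing and 18.5 CPM in free macrophages, a log2 difference of -1.26 without library 1.

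Of 13 tested genes of resident macrophages 6 were lower in MHC class II-bearing macrophages and 0 higher (median log2 difference -0.99 against 0.00 over all genes tested). Over all genes tested in the split 0.333% were lower and 0.402% higher. Timd4 was at 48.4 and 44.4 CPM in bearing and 126 and 144 CPM in free macrophages (log2 -1.61, SE 0.29, edgeR adjusted p = 1.31e-05). Folr2 was at 84.8 and 64.4 CPM against 210.1 and 144 CPM (log2 -1.20, SE 0.24, adjusted p = 0.00027), and Lyve1 at 54.5 and 112 CPM against 188 and 218 CPM (log2 -1.15, SE 0.22, adjusted p = 9.1e-05). In each of these 3 genes both free sums lay above both bearing sums. Without macrophages at 10 or more other-lineage UMIs none of the 3 was called by edgeR, with log2 differences of -1.19, -1.24 and -0.85 and adjusted p of 0.0959, 0.0506 and 0.308, and DESeq2 called none of them. The secreted or chemotactic members Fcna (log2 -3.08, SE 0.50) and Ccl24 (log2 -2.57, SE 0.58) had 1 and 5 and 0 and 5 UMIs in bearing macrophages, against 20 and 102 and 15 and 55 UMIs in free ones. Of the 6, 1 (Fcna) was called again without macrophages at 10 or more other-lineage UMIs (adjusted p = 0.034). Pf4 (log2 -0.50, adjusted p = 0.563) and Stab1 (log2 -0.48, adjusted p = 0.175) were among those not called. Vsig4, a receptor for C3 fragments, had 1 and 9 UMIs against 18 and 62 (log2 -1.77, SE 0.48). A UMI of Lyve1, Timd4 or Folr2 was held by 19 of 77 and 56 of 147 bearing macrophages, and by 90 of 189 and 242 of 388 free ones.

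**Figure D5:**
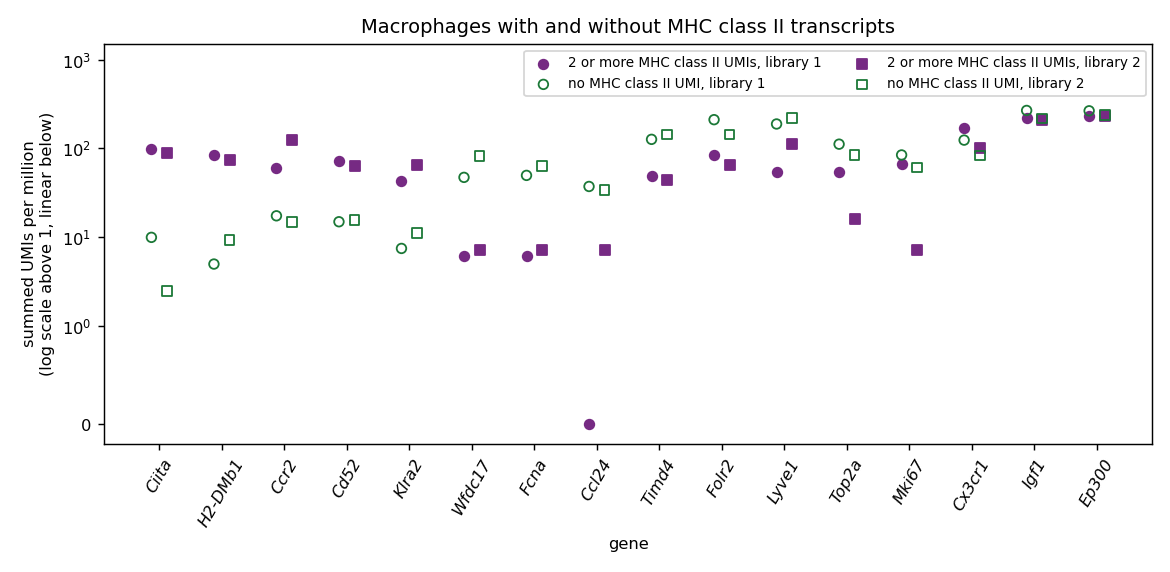
Summed UMIs as CPM (log scale above 1, linear below) of selected genes in macrophages with at least 2 MHC class II UMIs (filled) and with none (open), circles for library 1 and squares for library 2. Ciita stands at 96.9 and 88.7 against 9.89 and 2.47 and Timd4 at 48.4 and 44.4 against 126 and 144, while Ep300 points lie close together.

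Other genes lower in bearing macrophages were of mixed kinds. Wfdc17, a secreted protein of activated macrophages, had 1 and 5 UMIs against 19 and 133 (log2 -3.40, SE 0.49, edgeR adjusted p = 4.07e-09), and it was called again without macrophages at 10 or more other-lineage UMIs (log2 -4.35, adjusted p = 0.00729). C4b, a complement component, was at 42.4 and 18.6 CPM against 59.3 and 134 CPM (log2 -2.23, SE 0.35). Csmd1 and Slc35f1 were called lower (log2 -2.53 and -2.06), but in library 1 they were higher in bearing macrophages, by a log2 of 1.74 and 1.29 when library 1 was taken alone. Kif4, Ncapd2, Neil3 and Tlr5 had log2 differences from -2.22 to -1.89. Kif4 and Ncapd2 act in chromosome condensation and segregation, and Kif4 rested on 3 and 2 UMIs in bearing macrophages. Pparg, a nuclear receptor of lipid metabolism, was called higher, at 84.8 and 129 CPM in bearing and 42.0 and 50.6 CPM in free macrophages (log2 1.27, SE 0.28), and again without macrophages at 10 or more other-lineage UMIs (log2 1.86, adjusted p = 0.048).

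Proliferation genes were lower in bearing macrophages in 3 of 8 tested (Mki67, Top2a and Anln, list median -1.60), beside 0.333% of all genes tested. Mki67 was at 66.6 and 7.15 CPM in bearing and 84.0 and 60.4 CPM in free macrophages (log2 -1.72, SE 0.39), and the bearing value of library 1 lay above the free value of library 2. Top2a was at 54.5 and 15.7 CPM against 111 and 83.8 CPM (log2 -1.87, SE 0.35). None of the 3 was called without macrophages at 10 or more other-lineage UMIs. By barcodes, 6 of 77 (7.79%, exact interval 2.91 to 16.2) and 4 of 147 (2.72%, 0.746 to 6.82) bearing macrophages met the proliferation criterion, and 19 of 189 (10.1%, 6.16 to 15.3) and 31 of 388 (7.99%, 5.49 to 11.1) free ones. The intervals overlap in both libraries.

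Genes of the fractalkine receptor, a growth factor and the targeted acetyltransferases were not called between bearing and free macrophages. Cx3cr1 was at 169.5 and 102 CPM against 124 and 83.2 CPM (log2 0.35, SE 0.24, edgeR adjusted p = 0.86), Igf1 at 218 and 209 CPM against 267 and 217 CPM (log2 -0.13, SE 0.18, adjusted p = 0.982), Ep300 at 230.1 and 229 CPM against 264 and 236 CPM (log2 -0.09, SE 0.18, adjusted p = 0.988) and Crebbp at 448 and 632 CPM against 398 and 551 CPM (log2 0.19, SE 0.17, adjusted p = 0.921). A p that misses the threshold does not show equal levels. Among the gate's own genes, given without a test, Cd163 was at 557 and 474 CPM in bearing and 1339.6 and 827 CPM in free macrophages, F13a1 at 2464 and 3025 CPM against 5029.6 and 4734 CPM and C1qb at 484 and 416 CPM against 586 and 535 CPM.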

How the data were processed

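Right ventricular cells of 1 group of mice were profiled in 2 libraries of 3′ droplet RNA sequencing. The deposited table holds unnormalised UMI counts of each gene in each barcode, which the authors made with Cell Ranger 6.0.0, per the file headers, on GRCm38 (mm10), per the submitters' processing notes. Those notes also name fastp, Trimmomatic, Seurat and edgeR, without saying at which step. No doublet caller was run, and the labels do not say whether doublets were removed. Gate members, gene lists, comparisons and the genes of the split were chosen with earlier results of these data known.

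Counts were summed per library and class, giving 4 sums per comparison, and fitted with edgeR 4.0.16 (limma 3.58.1, R 4.3.3) by the quasi-likelihood test. TMM scaling, the filterByExpr filter and the library as a block were used, since the classes compared share a cell suspension. The pairing is by construction and leaves 1 residual degree of freedom among samples. P-values were Benjamini-Hochberg adjusted over all genes tested, leaving out the 12 genes of the gate rule and, in the split, its 4 genes. CPM (a gene's share of the UMIs of the class, multiplied by 1000000) were used for levels. They are counts of the 3′ end and were not compared between genes. A count of 3 was taken as the floor, and a barcode share has an exact 95% interval, covering counting error only. Thinning drew 500 UMIs from each barcode. DESeq2 1.42.0 was an alternative. Sums, shares and figures were made in Python 3.11.15 (numpy 2.4.6, pandas 2.3.3, scipy 1.17.1, matplotlib 3.10.9). On simulated counts with 50 genes changed at each fold, the comparison of macrophages with other barcodes recovered 84% of genes raised 2-fold and 100% of those raised 4-fold, but 50% of those lowered to 0.5 and 88% of those lowered to 0.25 of their level. In the split these were 84%, 100%, 60% and 93.9%, so lowered genes were missed more often than raised ones. Recovery here meant an adjusted p under 0.05 alone, without the 2-fold limit of the calls. The median log2 estimate of genes raised 2-fold was 0.947 against other barcodes and 1.02 in the split, so such genes can miss that limit. Changed genes were drawn from those with large expected counts, and the simulated spread was smaller than in the data. The recovered shares therefore do not give the sensitivity of the calls.

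Genes named were the gate genes, the targeted genes, GFP, list members not called, and called genes from the 4 of each list with the largest difference. In some lists not all of these 4 are named. Outside the lists, the 10 highest (at 50 CPM or more) and 5 lowest called genes were named. For the split, the genes named were the 10 highest and 10 lowest called genes and a fixed set. Names outside that rule, chosen after their values were seen, were Ptprc, Lyz2, Cd68, Cx3cr1, Lyve1, Igf1, Csf1, Il34, C3, C1ra, C1s1, Cxcl12, Tnf, Vcan, Ace, Gja1, Kit, S100a8, Il18 and, in the split, Mki67, Top2a, Anln, Vsig4, Pparg, Pf4, Stab1 and Fn1. Of the 341 list genes, 4 had no row and are not analysed here. Values of 2 listed genes are not reported here.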

Additional observations from a re-analysis of the deposited data

How the results depend on the processing

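Between macrophages and other barcodes, DESeq2 called 1202 genes higher and 1064 lower, and without the replicate block 531 and 14 were called, with 110 of 191 named differences past the threshold. When library 1 or library 2 was left out, where no test is possible, 0 of the 191 called named differences changed sign, and 17 and 19 of all 310 named values did, none of them called. Without the block 5 of the 310 changed sign, none of them called. In the MHC class II split, against 35 higher, 29 lower and 23 named, the calls were 1, 0 and 1 by DESeq2, and 0, 0 and 0 without the block and also after thinning to 500 UMIs (divided at 1 UMI, 61 and 87 at an unadjusted p under 0.05). They were 8, 12 and 12 when the split was at 1 UMI and 6, 6 and 10 at 3 UMIs. Without macrophages holding 3 or more other-lineage UMIs they were 1, 0 and 1, and with Bank1 not counted 15, 15 and 9. Without those holding 10 or more, Bank1 not counted, they were 13, 6 and 9. Both settings without Bank1 were chosen after seeing the data. The mean share of macrophages among all barcodes over the 2 libraries was 4.24%, 1.41% without those holding 3 or more other-lineage UMIs, and 2.18% with Bank1 not counted. In the split, the log2 difference of Nppa was -1.26 without library 1 and 3.36 without library 2, that of Csmd1 -3.23 and 1.74 and that of Slc35f1 -2.49 and 1.29. The cause of these changes was not tested. Depth limits the split, since several called genes rest on under 10 UMIs in a sum.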
